A study of Mus musculus with 3 samples.

Results

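Guanylate-binding proteins (GBPs) and immunity-related GTPases (IRGs) are families of interferon-induced GTPases. The 10 genes described here, Gbp2, Gbp3, Gbp5, Gbp6, Gbp7, Gbp9, Irgm1, Irgm2, Igtp and Iigp1, were picked by gene symbol out of 16072 named genes in the expression table, with earlier results of these data known. RNA was measured in bone marrow (BM) cells that carried Ly6G, a surface antigen of neutrophils that Gr-1 antibodies bind. The cells came from C57BL/6 mice that had received B16.F10 mouse melanoma cells under the skin and, 1 week later, an adeno-associated virus (AAV) vector in the muscle. The AAV-Ctrl group (2 libraries, AAV-Ctrl 1 and AAV-Ctrl 2) had the empty vector, and the AAV-IL-27 group (1 library) had a vector encoding mouse IL-27 as a single chain of its EBI3 and p28 subunits under the ubiquitous CAG promoter. The tumour and the AAV were thus common to both groups, and mice in the study were 6 to 10 weeks of age. Cells are taken here to have been collected 3 weeks after the vector. This time is an assumption, since it was described for BM Gr-1+ cells without mention of a tumour. The labels speak of 4 mice but name 2 with AAV-Ctrl and 1 with AAV-IL-27, as many as the libraries analysed. The table also holds 1 column named as another AAV-IL-27 replicate, which matched no listed sample and which was not used here. The vector was given in muscle, so no transcript in these BM cells checks which vector a mouse had received.

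GBPs are large dynamin-like GTPases that assemble on the vacuoles of intracellular pathogens and on bacterial surfaces, where they can break the membrane and bring bacterial lipopolysaccharide to caspase-11. IRGs are smaller GTPases of the same defence, in which Irgm1, Irgm2 and Igtp (also called Irgm3) act as regulators that stay on the cell's own membranes, and Iigp1 (Irga6) is an effector that loads onto the pathogen's vacuole. Both families are classical targets of interferon-gamma, and their promoters are known for gamma-activated sites (GAS) and for interferon-stimulated response elements (ISRE), to which IRF factors bind. IL-27 signals through Il27ra and gp130 (Il6st) to JAK kinases and on to STAT3 and other factors.

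Promoter sequences are shown because both elements are recognisable in these genes. In the RefSeq promoter windows of GRCm38.p6, 7 of the 10 genes matched (Gbp2, Gbp3, Gbp5, Gbp7, Irgm1, Irgm2 and Igtp), and the 250 bases before each annotated start were searched on both strands for the letters GAAANNGAAA (ISRE) and TTCNNNGAA (GAS, a palindrome in its fixed letters). The ISRE letters were present in 7 of 7 genes, against 2.98% of all 32851 windows of that length. A gene counted if any of its windows held the letters, and the 7 genes had 8 windows, not all of which held a match. The GAS letters were present in 4 of 7 (Gbp5, Gbp7, Irgm2 and Igtp), against 7.02% of all windows, and 0.332% of all windows held both. Stretches from 5 genes follow, each read 5′ to 3′ on the strand of its gene, in lower case with the matches in capitals. A match describes the letters only and was not tested for binding.
Gbp2, chr3:142620589-142620628, plus strand, 1 ISRE match: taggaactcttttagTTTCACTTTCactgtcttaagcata
Gbp7, chr3:142530215-142530307, plus strand, 2 GAS matches and then 1 ISRE match: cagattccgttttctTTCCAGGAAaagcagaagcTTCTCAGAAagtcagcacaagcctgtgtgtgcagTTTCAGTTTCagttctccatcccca
Irgm1, chr11:48871421-48871465, minus strand, 2 ISRE matches that overlap each other: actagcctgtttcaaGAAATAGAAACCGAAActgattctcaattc
Irgm2, chr11:58214887-58214937, plus strand, 1 GAS match and then 1 ISRE match: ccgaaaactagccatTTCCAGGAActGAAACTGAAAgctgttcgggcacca
Igtp, chr11:58199496-58199546, plus strand, 1 GAS match and then 1 ISRE match: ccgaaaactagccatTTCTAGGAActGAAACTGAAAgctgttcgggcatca

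The ISRE match began 59 bases before the start of Gbp2, 53 before that of Gbp7, 64 before that of Irgm2 and 34 before that of Igtp, and the overlapping matches began 30 and 24 bases before the start of Irgm1. Irgm2 and Igtp, which neighbour each other on chromosome 11, shared 49 of the 51 bases shown, with the GAS and ISRE matches in the same order and spacing. Gbp3 held 2 overlapping ISRE matches, 45 and 39 bases before its start, and no GAS match. In Gbp5 the GAS matches lay 245 and 52 bases before the start, with the ISRE match at 165. The 3 genes with ISRE letters alone (Gbp2, Gbp3 and Irgm1) and the 4 with both kinds had higher values in the AAV-IL-27 library. Gbp6, Gbp9 and Iigp1 had no window to search, and no searched gene lacked the ISRE letters. Genes with and without the letters therefore could not be compared, and a link between letters and values was not tested.

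Values are FPKM, fragments scaled to transcript length and to the number of mapped fragments, so that levels can be compared between genes. Where 3 values stand together, they are those of AAV-Ctrl 1, of AAV-Ctrl 2 and of AAV-IL-27, in that order. A difference is the log2(FPKM + 1) of AAV-IL-27 with the mean over both controls subtracted, on which scarce genes appear to differ less than they do in FPKM. With 1 AAV-IL-27 library the replicate error of that group is unknown and no p-value was computed. Each difference is read against the one between AAV-Ctrl 2 and AAV-Ctrl 1, called here the control difference. Over the 9130 genes averaging 1 FPKM or more, the control difference had a median size of 0.087 and a 99th percentile of 0.571, and the median difference of the AAV-IL-27 library was -0.01. Of the 10 GTPase genes, 9 had a mean FPKM of at least 1, and Gbp6 (0.737) did not. In bulk RNA, fewer expressing cells and less RNA per cell cannot be told apart.

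In the AAV-IL-27 library 8 of these 9 genes were above both AAV-Ctrl libraries, where 38.9% of all 9130 genes were, and 1 of 9 (Iigp1) was below both, where 41.9% were. Counting Gbp6, 9 of 10 were above both. The difference had a median of 0.64 over the 9 genes. At 1 log2 unit or more above each AAV-Ctrl library stood 1 of 9 genes, Gbp9, against 0.307% of all genes (28 genes), and 0 of 9 stood as far below, against 2.32%. At 0.5 log2 unit or more, 4 of 9 were higher (Gbp5, Gbp9, Irgm1 and Igtp), against 1.57%, and 0 of 9 were lower, against 7.01%. For 7 of 9 genes the AAV-IL-27 value exceeded both AAV-Ctrl values by more than these differed from each other, against 25.0% of all genes, and Gbp2 was the gene above both for which it did not.

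**Figure D1:**
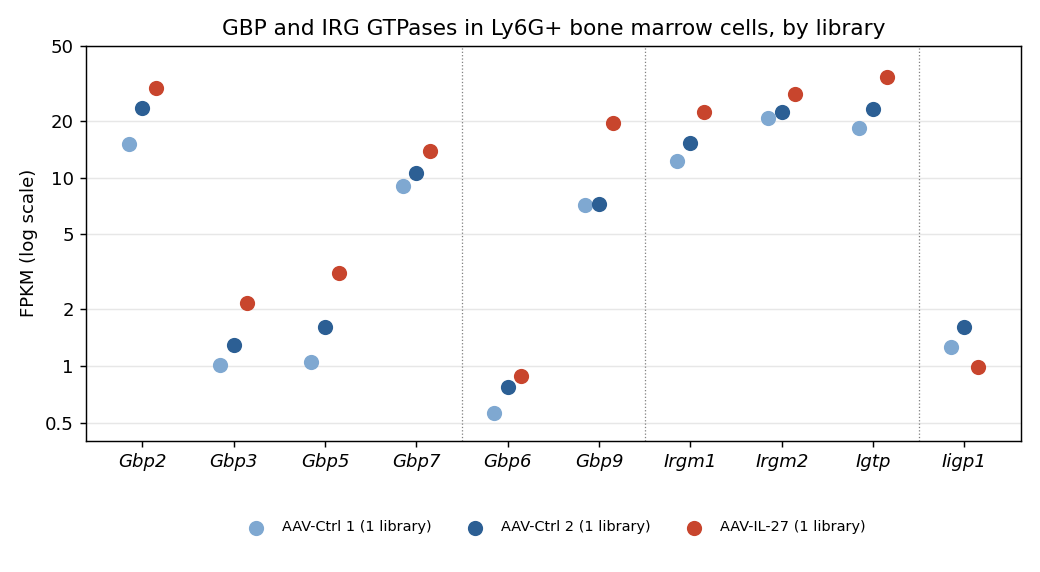
FPKM (log axis) of each of the 10 GTPase genes, with 1 point for each library, AAV-Ctrl 1 and AAV-Ctrl 2 in light and dark blue and AAV-IL-27 in red; dotted lines separate the GBPs of chromosome 3, those of chromosome 5, the regulatory IRGs and Iigp1. The AAV-IL-27 point is the highest of its gene in 9 of 10 genes and the lowest in Iigp1, and the AAV-Ctrl 2 point is above AAV-Ctrl 1 in all 10.

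The libraries also differed in the RNA of other cell types. The neutrophil markers summed to 176032.24, 171724.48 and 166791.46 FPKM, and Ly6g itself was at 711.76, 766.11 and 586.29, so the defining markers of the labelled cells were abundant in each library. Of the 13 neutrophil markers, 4 were above both controls and 6 below both, where 38.9% and 41.9% of all genes were. The most abundant of them, S100a9, had a log2 difference of only -0.08. In the AAV-IL-27 library 9 of 9 macrophage markers (sums of 600.28, 633.74 and 171.60), 6 of 6 B cell markers (24.81, 31.26 and 3.89), 5 of 5 erythroid markers (9783.45, 6631.91 and 1141.65) and 4 of 4 megakaryocyte markers (48.21, 53.51 and 6.84) were below both controls. Of 5 endothelial markers 4 were below both, with sums of 8.17, 8.24 and 5.32. The monocyte markers were at 1106.89, 1166.41 and 1230.79, with 4 of 5 above both. The 7 T and NK cell markers were at 10.63, 11.67 and 12.96, with only 1 above both and 1 below both. None of the markers was listed at 0 in any library. In the AAV-IL-27 library these sums thus lay on the same side of the controls as Iigp1, opposite to most of the GTPase genes. Exceptions were the monocyte sum and the T and NK cell sum, which lay on the side of most of the GTPase genes. The part of the other cell types in the GTPase values was not tested.

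Gbp9 lay furthest from its controls. Its FPKM was 7.19 in AAV-Ctrl 1, 7.21 in AAV-Ctrl 2 and 19.52 with AAV-IL-27. The AAV-Ctrl values were almost equal and the AAV-IL-27 value was 2.71-fold their mean of 7.20 ± 0.0141 (SD, n = 2), a difference of 1.32 on the log2 scale that ranked 22 among 9130 genes. From an approximate fit to the spacing of low FPKM values, the libraries were estimated to hold 19900000, 20100000 and 19800000 fragments. At these depths Gbp9 had about 614, 622 and 1658 fragments. The 95% Poisson intervals of its FPKM, from 6.63 to 7.78, from 6.66 to 7.80 and from 18.6 to 20.5, kept the AAV-IL-27 library apart from both controls. Such intervals cover counting error only, not the spread between animals. Gbp9 lies at chr5:105076464-105110357 (RefSeq, GRCm38), and its transcript is 84.1% identical to that of Gbp4 over 4476 bases. In the GENCODE annotation Gbp9 overlaps Gbp8 and Gbp4 on the same strand, but by RefSeq positions it overlaps neither. The sum of these 3 genes was 10.36, 10.37 and 23.12 FPKM, or 2.23-fold the mean of the controls. Whether fragments shared by these genes were divided among them or dropped is not known, so the sum can also depend on the counting.

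The GBPs of chromosome 3 were all higher in the AAV-IL-27 library, by smaller margins. Gbp2, which coats the vacuole of Toxoplasma and the surface of cytosolic bacteria, had 15.09 FPKM in AAV-Ctrl 1, 23.52 in AAV-Ctrl 2 and 29.94 with AAV-IL-27. The AAV-IL-27 value was the highest, but AAV-Ctrl 2 lay closer to it than to AAV-Ctrl 1: the log2 difference from the AAV-Ctrl mean of 19.3 ± 5.96 (SD, n = 2) was 0.64, the margin over AAV-Ctrl 2 was 0.34 and the AAV-Ctrl libraries themselves differed by 0.61. Gbp5, which promotes assembly of the NLRP3 inflammasome, had 1.05, 1.61 and 3.10 FPKM. Its AAV-IL-27 value stood clear of both controls at 2.33-fold their mean of 1.33 ± 0.396 (SD, n = 2), with a log2 difference of 0.83 against 0.35 between the controls.

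Gbp7 had 9.0 FPKM in AAV-Ctrl 1, 10.52 in AAV-Ctrl 2 and 13.80 with AAV-IL-27. It differed by 0.46 on the log2 scale from a mean of 9.76 ± 1.07 (SD, n = 2). Gbp3 had 1.01, 1.29 and 2.15 FPKM in the same order, 1.87-fold a mean of 1.15 ± 0.198 (SD, n = 2) and a log2 difference of 0.55. In both genes the controls lay closer to each other, at 0.20 and 0.19 log2 unit for Gbp7 and Gbp3, than the nearer control lay to the AAV-IL-27 library, at 0.36 and 0.46. The counting intervals of AAV-IL-27 and both controls were apart for Gbp2, Gbp3, Gbp5 and Gbp7. The intervals of the AAV-Ctrl libraries were also apart from each other for Gbp2 and Gbp7, so the controls differed by more than counting error there.

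Gbp6, the remaining GBP on chromosome 5, was scarce. It had 0.56 FPKM in AAV-Ctrl 1, 0.77 in AAV-Ctrl 2 and 0.88 with AAV-IL-27, from an estimated 28, 39 and 44 fragments. The AAV-IL-27 value was the highest, but its interval, from 0.642 to 1.19, overlapped those of AAV-Ctrl 1, from 0.372 to 0.809, and AAV-Ctrl 2, from 0.549 to 1.06, so no difference was detectable at this depth. Its transcript is 97.8% identical to that of Gbp10 over 2603 bases, and how the authors' counting shared fragments between such genes is not known. Gbp6 and Gbp10 together had 0.65, 0.98 and 0.94 FPKM, which places AAV-IL-27 between the controls.

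The regulatory IRGs were higher in the AAV-IL-27 library without exception. Igtp, which protects host lipid droplets and membranes from the effector IRGs, had 18.35 FPKM in AAV-Ctrl 1, 23.01 in AAV-Ctrl 2 and 34.39 with AAV-IL-27. That was 1.66-fold the mean of 20.7 ± 3.30 (SD, n = 2) and a log2 difference of 0.72, against 0.31 between the controls, and it made Igtp the most abundant of the 10 genes in the AAV-IL-27 library. Irgm1, which resides on Golgi, lysosomal and mitochondrial membranes and is needed for haematopoietic stem cell maintenance during infection, had 12.23, 15.26 and 22.42 FPKM. Its log2 difference was 0.68 from a mean of 13.7 ± 2.14 (SD, n = 2), with 0.30 between the controls. For Igtp and Irgm1 the AAV-IL-27 counting interval was above those of both controls. The intervals of the AAV-Ctrl libraries were also apart from each other, so the controls of both genes differed by more than counting error.

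Irgm2, a Golgi-associated regulator that restrains caspase-11 activation, had the smallest difference of the 3. Its values were 20.69, 22.26 and 27.92 FPKM, 1.3-fold the mean of 21.5 ± 1.11 (SD, n = 2) and 0.36 on the log2 scale. The controls were closest to each other in this gene among the IRGs, at 0.10 log2 unit, and the AAV-IL-27 value was above both. Irgm2 was thus the most abundant of the 10 genes by the mean of the controls and not in the AAV-IL-27 library, where Igtp and Gbp2 exceeded it. The 3 regulators summed to 51.27, 60.53 and 84.73 FPKM, with AAV-IL-27 at 1.52-fold the mean of the controls. Irgm2 and Igtp overlap on the same strand in the GENCODE annotation but not by RefSeq positions. They are 84.0% identical over 682 bases, and their sum was 39.04, 45.27 and 62.31 FPKM.

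Iigp1, the effector, was the exception. It had 1.26 FPKM in AAV-Ctrl 1, 1.61 in AAV-Ctrl 2 and 0.99 with AAV-IL-27, so the AAV-IL-27 library was below both controls, at 69.0% of their mean of 1.44 ± 0.247 (SD, n = 2) and a log2 difference of -0.29. The estimated fragment numbers were 71, 92 and 56, and the interval of AAV-IL-27, from 0.753 to 1.29 FPKM, overlapped that of AAV-Ctrl 1, from 0.982 to 1.59, and ended just short of that of AAV-Ctrl 2, from 1.3 to 1.98. The margin of 0.18 log2 unit below AAV-Ctrl 1 was smaller than the control difference of 0.21, so Iigp1 was not lower by more than the controls differed from each other. Its closest relative in sequence, Gm4951 (86.3% identical over 1280 bases), lies next to it on chromosome 18 and was also lowest in the AAV-IL-27 library, with 0.85, 0.70 and 0.26 FPKM.

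Among themselves the genes fell into an abundant and a scarce set, with control means from 7.20 to 21.5 FPKM in the first and from 0.665 to 1.44 FPKM in the second. By the mean of the controls the order was Irgm2, Igtp, Gbp2, Irgm1, Gbp7, Gbp9, Iigp1, Gbp5, Gbp3 and Gbp6. The ranges of the control values overlapped between Irgm2, Igtp and Gbp2, between Gbp2 and Irgm1, and between Iigp1, Gbp5 and Gbp3, so the order inside those groups is not set beyond their spread. In the AAV-IL-27 library Gbp9 ranked above Gbp7, and Iigp1 ranked below Gbp5 and Gbp3. The 10 genes summed to 86.43 FPKM in AAV-Ctrl 1, 107.06 in AAV-Ctrl 2 and 155.11 with AAV-IL-27, or 0.0145%, 0.0183% and 0.0270% of all FPKM in the library. Gbp9 supplied 8.32% and 6.73% of that sum in the controls and 12.6% in AAV-IL-27, while Irgm2 supplied 23.9%, 20.8% and 18%. The 6 GBPs together were at 1.76-fold the mean of the controls and the 4 IRGs at 1.5-fold.

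The AAV-Ctrl libraries also differed in one direction. AAV-Ctrl 2 was above AAV-Ctrl 1 in 9 of 9 genes, where 50.3% of all genes were, with a median difference of 0.21 log2 unit. Gbp9 was the gene where they were closest, at 0.00, and Gbp2 the one where they were furthest apart. In 8 of 9 genes AAV-Ctrl 1 was lowest, AAV-Ctrl 2 in the middle and AAV-IL-27 highest, an order found in 16.2% of all genes. The part of the AAV-Ctrl 2 animal or library in these differences was not tested. Against AAV-Ctrl 2 alone the median difference of the 9 genes was 0.46, and against AAV-Ctrl 1 alone it was 0.82, where Gbp5 came to exactly 1.00 and so met the threshold of 1 log2 unit beside Gbp9.

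**Figure D2:**
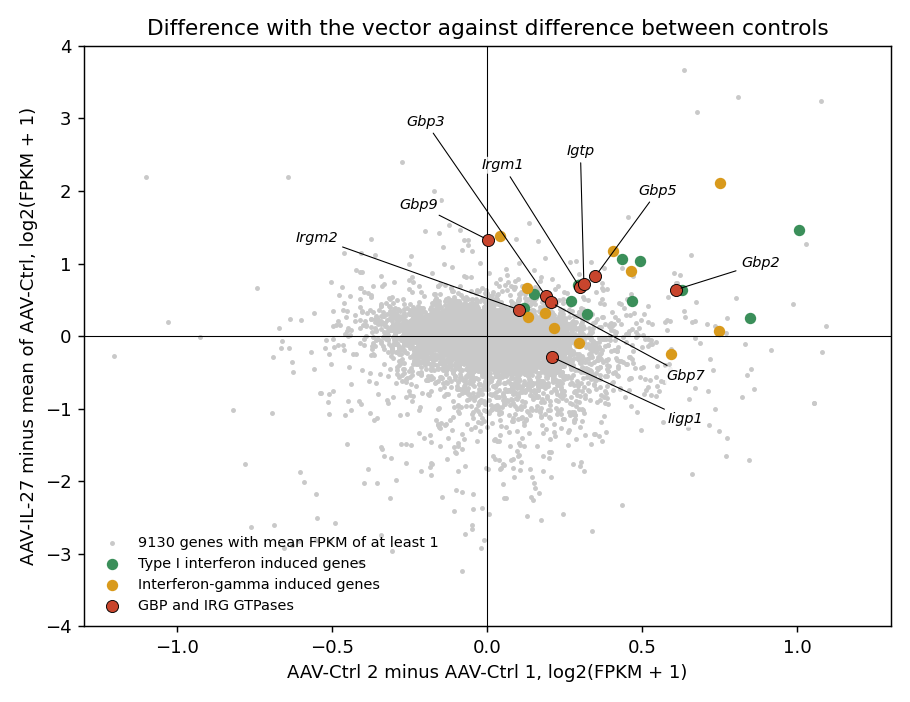
Each point is a gene with a mean FPKM of at least 1, with the difference between the AAV-Ctrl libraries across and the difference of AAV-IL-27 from their mean upwards, both on the log2(FPKM + 1) scale; 2 of the 9130 genes lie outside the axes. The 9 GTPase genes (red) lie at or to the right of 0, 8 of them above 0 and Iigp1 below, with Gbp9 at 1.32 upwards and 0.00 across and Gbp2 at 0.64 and 0.61.

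The other GBP and IRG genes showed how far the pattern ran through each chromosomal cluster. Of 13 further family members, all were listed and 5 had a mean FPKM of at least 1, with a median difference of 0.46. The clusters lie on chromosomes 3, 5, 11 and 18 in GRCm38. Those of chromosome 11 are counted together, although the genes from Irgm1 (start 48865245) to Ifi47 lie well apart from those from Gm12250 (start 58183843) to Irgm2. On chromosome 11, 8 of 8 genes were above both controls, and they summed to 61.66, 75.29 and 109.02 FPKM. These include effector-type IRGs that lie between the regulators. Ifi47 (Irgd) had 6.09, 8.81 and 13.80 FPKM and Gm12250 (Irgb10) 1.72, 2.53 and 4.95, with log2 differences of 0.83 and 0.94. Tgtp1 and Tgtp2 (both Irgb6) are 99.8% identical over 2811 bases, so only their sum is given, 2.14, 2.93 and 4.75 FPKM. Gm5431 was at 0.44, 0.49 and 0.79 FPKM, but its AAV-IL-27 interval, from 0.575 to 1.06, overlapped those of both controls, so no difference was detectable at this depth. By their values the effector-type IRGs of chromosome 11 thus lay on the side of the regulators and not on that of Iigp1, with this limit for Gm5431.

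On chromosome 3 the genes summed to 26.15, 36.98 and 49.07 FPKM, and the further gene listed there, Gbp2b (Gbp1), was near 0 in every library, at 0.00, 0.04 and 0.08. The chromosome 5 cluster was mixed, with 3 of 6 genes above both controls. Gbp4, the closest relative of Gbp9, had 0.13 FPKM in AAV-Ctrl 1, 0.22 in AAV-Ctrl 2 and 1.51 with AAV-IL-27, from an estimated 12, 20 and 133 fragments. It was 8.63-fold the mean of the controls, with intervals apart, but its mean FPKM of 0.620 kept it out of the 5 further genes behind the median of 0.46, while the counts by chromosome take every gene listed. Gbp8, on the other side of Gbp9, had 3.04, 2.94 and 2.09 FPKM, below both controls by a log2 difference of -0.37. Its AAV-IL-27 interval, from 1.70 to 2.55 FPKM, overlapped that of AAV-Ctrl 2, from 2.47 to 3.47, and ended just short of that of AAV-Ctrl 1. Gbp10 (0.09, 0.21 and 0.06) and Gbp11 (0.12, 0.00 and 0.06) were near the lowest measurable values. The IRG relatives on chromosome 7, Irgq (2.91, 3.20 and 3.14) and Irgc1 (0.38, 0.41 and 0.71), are outside the interferon-induced clusters, and Irgq lay between the controls.

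**Figure D3:**
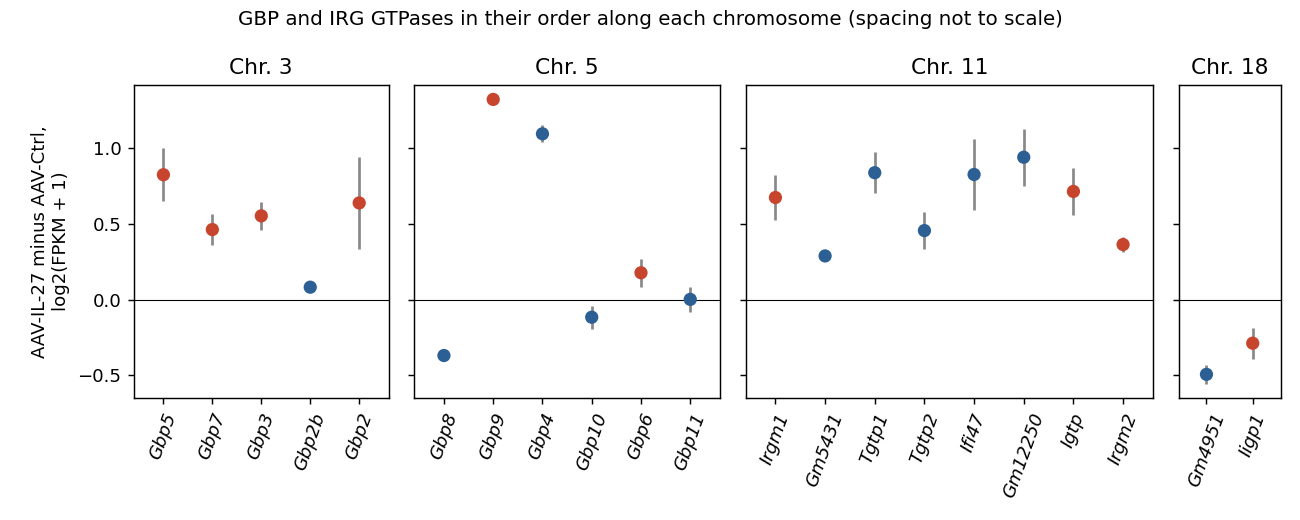
Difference of AAV-IL-27 from the AAV-Ctrl mean, log2(FPKM + 1), for the GBP and IRG genes in their order on chromosomes 3, 5, 11 and 18 (spacing not to scale), with the 10 named genes in red and the other family genes in blue; grey lines run from the difference from the higher to that from the lower AAV-Ctrl library. The 5 genes of chromosome 3 and the 8 of chromosome 11 lie above 0, chromosome 5 is mixed with Gbp9 and Gbp4 above 1 and Gbp8 at -0.37, and both genes of chromosome 18 lie below 0.

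Dynamin-like relatives outside the GBP and IRG families were not uniformly higher. The list held 7 genes, 6 were listed in the table, 3 passed the filter, and their median difference was -0.18. Gvin1, a very large interferon-inducible GTPase, had 18.69, 18.96 and 21.51 FPKM, a log2 difference of 0.18. The atlastins, GTPases that fuse endoplasmic reticulum membranes, were lower for Atl2 (4.44, 4.10 and 3.65) and Atl3 (3.28, 3.5 and 2.83), and Atl1 was near 0 at 0.09, 0.11 and 0.11. The antiviral Mx genes were scarce, with Mx1 at 0.18, 0.33 and 0.47 FPKM and Mx2 at 0.15, 0.04 and 0.13.

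Receptors, kinases and factors of the IL-27 and interferon pathways were measured in the same libraries. Of the receptors, 4 of 6 genes passed the filter, with a median difference of 0.18 and none past 0.5. Ifngr2 had 104.20, 98.08 and 115.41 FPKM and Ifnar2 79.54, 75.64 and 87.68. The chains of the IL-27 receptor itself were scarce, with Il27ra at 0.14, 0.26 and 0.04 FPKM and Il6st at 0.82, 0.80 and 0.43. Among the ligands, Ifng was at 0.05, 0.00 and 0.00, so its transcript was near the lowest measurable values, while Ebi3 had 106.95, 109.61 and 127.45 and Il27 (p28) 4.21, 5.69 and 4.77. The JAK kinases had a median difference of 0.11 over 3 genes, with Jak1 at 122.21, 121.50 and 131.85 and Jak2 at 25.72, 23.18 and 25.67.

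Among the STAT and IRF factors, Irf1, which acts on ISRE elements of GBP genes, had 84.16, 86.04 and 103.53 FPKM, a difference of 0.28. Stat3, a main factor downstream of IL-27, had 82.62, 76.56 and 76.87. Irf1 was thus above both controls and Stat3 between them. Irf8, a myeloid factor that also binds such elements, was below both, with 7.49, 7.89 and 4.66. The feedback inhibitors had a median of 0.19 over 5 genes but spread widely. Socs1, an inhibitor of interferon-gamma signalling, had 3.35, 3.55 and 6.97, and Usp18, an inhibitor of type I interferon signalling, 7.0, 11.13 and 16.95, both above the controls. Socs3, induced by STAT3, had 49.23, 35.52 and 19.14 FPKM in the same order, lowest in AAV-IL-27 by a log2 difference of -1.09, and Pias1 had 20.32, 21.20 and 20.70.

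Other interferon-induced genes were compared by their own lists. In the interferon-gamma induced list, 11 of 13 genes passed the filter, with a median difference of 0.32, 8 of 11 above both controls, and 2 past 1 log2 unit. These were Cxcl10, a chemokine for T cells, with 1.29, 2.85 and 11.80 FPKM, and Cd274, which encodes PD-L1, with 5.44, 5.62 and 15.92. The most abundant were H2-K1, a class I antigen-presenting molecule with close relatives in sequence, with 243.04, 322.28 and 632.93, and Tap2, a subunit of the peptide transporter, with 64.58, 70.75 and 81.59. In the type I interferon list, 11 of 12 passed, with a median of 0.58, 10 of 11 above both controls and 0 past 1 log2 unit above each. Against AAV-Ctrl 2 alone that median was 0.35, and against AAV-Ctrl 1 alone it was 0.71. Its most abundant genes were Oasl2, with 84.69, 94.18 and 134.40, and Rtp4, with 67.98, 82.22 and 104.73. In each of these lists AAV-Ctrl 2 was above AAV-Ctrl 1 in 11 of 11 genes, as in the GTPases, with median control differences of 0.30 and 0.43.

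Partners of the GTPases were measured as well. The ATG8 conjugation machinery, which IRGs and GBPs need for loading onto vacuoles, had a median difference of -0.03 over 10 genes, 3 above and 5 below both controls. Its most abundant genes, Gabarap (560.52, 531.39 and 624.51 FPKM) and Map1lc3b (149.75, 153.10 and 167.10), were above both. The caspase-11 and inflammasome partners had a median of 0.11 over 6 genes, 3 above and 2 below both controls. Below both were Casp4, the gene of caspase-11 itself, with 26.88, 26.15 and 21.44 FPKM, and Casp1, with 28.95, 30.09 and 28.78. Gsdmd, the pore-forming target of caspase-11, had 64.94, 71.62 and 83.32, and the inflammasome sensor Nlrp3 had 47.41, 44.78 and 54.31. Aim2, a DNA sensor to which GBPs give access to bacterial DNA, had 9.45, 7.83 and 15.83, the one gene of this list more than 0.5 log2 unit above both controls.

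**Figure D4:**
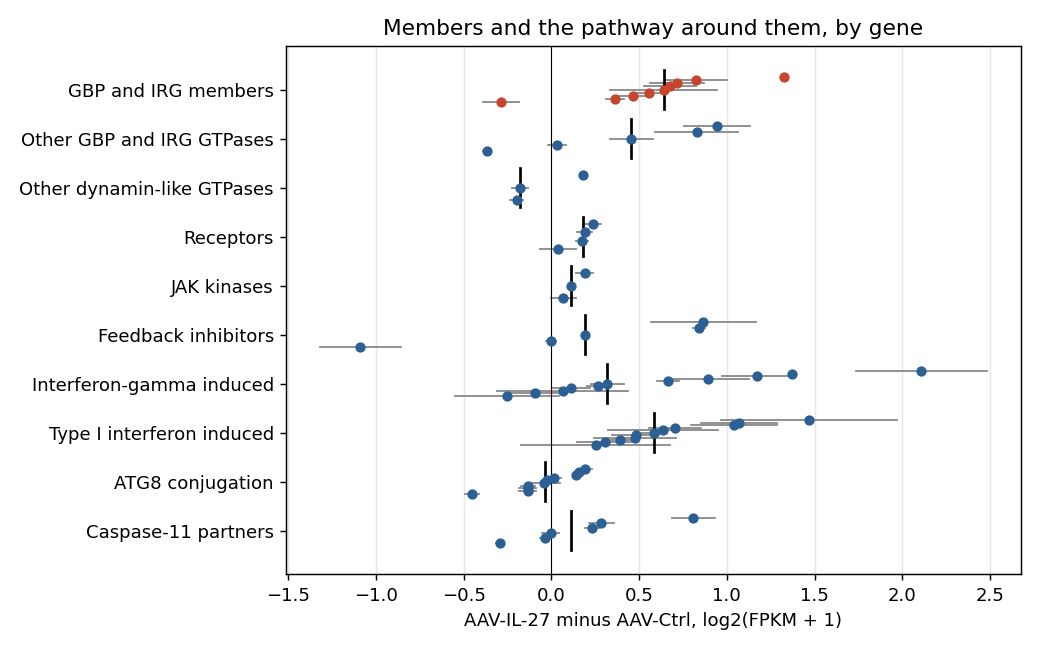
Difference of AAV-IL-27 from the AAV-Ctrl mean, log2(FPKM + 1), for each gene with a mean FPKM of at least 1 in the GTPase set (red) and in the lists around it (blue); grey lines run from the difference from the higher to that from the lower AAV-Ctrl library, and black ticks mark each list's median. The median is 0.64 for the GTPases, 0.58 for type I interferon induced genes and 0.32 for interferon-gamma induced genes, and between -0.18 and 0.46 for the other lists.

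Among 5952 genes outside all lists with a mean FPKM of at least 5, those whose pair of differences from the AAV-Ctrl libraries came nearest to Gbp9 were Bcl2a1b, Ccrl2, Dusp5, Gpr132 and Slc39a4, at Euclidean distances from 0.0683 to 0.209 log2 unit over 3 libraries. Bcl2a1b, a survival gene of the BCL2 family with near-identical copies, had 6.83, 7.34 and 19.51 FPKM. Ccrl2, an atypical chemokine receptor, had 3.98, 3.77 and 10.65, and Dusp5, an ERK phosphatase, 7.45, 8.47 and 21.20. With 3 libraries, nearness in this measure is a description of the values alone.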

How the data were processed

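RNA of BM Ly6G+ cells was extracted with Trizol, enriched with oligo-dT and sequenced from dUTP strand-marked libraries on a DNBSEQ instrument. The authors deposited FPKM values to 2 decimals, keyed by NCBI Gene number, and per the submitters' processing notes the build was mm10. The aligner, the counting tool, its use of strand and the filter on genes are not given in the sources used here. In the table, 1 row without a symbol was left out, and 1 further per-sample column, named as replicate 1 of AAV-IL-27, has no counterpart among the listed samples and was left aside. Rnf213 and Ifnb1 were not analysed here, and 1 gene of the STAT and IRF list and the summary of that list are not reported here. Gene numbers matched RefSeq for 16035 genes, including 10 of the 10 GTPases.

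Differences were taken as log2(FPKM + 1), a pseudocount of 1, and genes were counted where their FPKM averaged 1 or more over the libraries. A gene counted as higher or lower at 1 log2 unit or more from each AAV-Ctrl library. No test was run, since FPKM values with 1 AAV-IL-27 library give neither a count model nor a replicate error. The calculation was tested on simulated data. Depth was estimated from the steps of low FPKM values in genes with 1 RefSeq transcript, with 90 nt subtracted from each length. The pool held 10934 such genes, but the low values numbered only 299, 291 and 276, in the library order used above. Within 0.15 of a whole fragment lay 71.6%, 73.9% and 67.0% of the low values, too few for whole counts, so fragment numbers and their exact 95% Poisson intervals are estimates. For genes with several transcripts, 1 length was assumed.

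The GTPase genes and the lists around them were chosen with earlier results of these data known. The named genes are the 10 GTPases, all measured genes of the other GTPase lists, from each other list its most abundant 2 genes and those 1 log2 unit from both controls, and the 5 nearest to Gbp9. Il27ra, Il6st, Ifng, Irf8, Socs1, Usp18, Aim2, Casp4 and Casp1 were added after their values were seen. Alternatives were pseudocounts of 0.1 and 0.01, no filter, a filter at 5 FPKM, thresholds of 0.5 and 2, equal FPKM totals, median-ratio scaling, and leaving out each AAV-Ctrl library. Promoters came from RefSeq (GRCm38.p6), gene positions from RefSeq GRCm38.p6, overlaps from GENCODE M21, and sequence identities from BLAST 2.17.0. Computations ran in Python 3.11.15 with pandas 2.3.3, numpy 2.4.6 and scipy 1.17.1, and figures were drawn with matplotlib 3.10.9.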

Additional observations from a re-analysis of the deposited data

How the results depend on the processing

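Each of the 10 GTPase genes lay beyond both controls, so only the scalings could turn the sign of its difference, and neither equal totals nor median ratios did. Over the 8 alternatives of pseudocount, filter, scaling and left-out control, Gbp9 lay between 1.32 and 1.44, Gbp5 between 0.65 and 1.25, Gbp2 between 0.34 and 0.94 and Iigp1 between -0.52 and -0.18. Their median, 0.64, ran from 0.46 without AAV-Ctrl 1 to 0.82 without AAV-Ctrl 2. The number past 1 log2 unit, 1, was 1 with AAV-Ctrl 1 left out and 2 with AAV-Ctrl 2 left out (Gbp5 at exactly 1.00), 4 at a threshold of 0.5 and 0 at 2. With a filter at 5 FPKM, 6 of the genes remained and 0 were below both controls, since Iigp1 was filtered out. Over all genes, the 28 higher genes became 46 with a pseudocount of 0.01, 143 at a threshold of 0.5, 5 at 2, and 40 and 49 with 1 control left out. The 212 lower genes became 396 and 425 with pseudocounts of 0.1 and 0.01, 93 with the filter at 5 FPKM, 640 at a threshold of 0.5 and 39 at 2. The dynamin-like relatives, -0.18, gave -0.22 with either smaller pseudocount, 0.030 with no filter and 0.18 with the filter at 5 FPKM (1 gene, Gvin1). They gave -0.16 with equal totals, -0.13 without AAV-Ctrl 1 and -0.16 without AAV-Ctrl 2, so the sign of that median rests on which genes pass. Other medians moved as follows. Receptors went from 0.18 to 0.11 with no filter, where the scarce IL-27 receptor chains enter. Other GBP and IRG genes went from 0.46 to 0.83 with the filter at 5 FPKM, 0.72 with equal totals and 0.29 with no filter. They were at 0.34 without AAV-Ctrl 1 and 0.58 without AAV-Ctrl 2. Type I interferon induced genes went from 0.58 to 0.35 without AAV-Ctrl 1 and 0.71 without AAV-Ctrl 2. Feedback inhibitors went from 0.19 to 0.094 with the filter at 5 FPKM and 0.24 with equal totals. Interferon-gamma induced genes went from 0.32 to 0.49 with the filter at 5 FPKM. JAK kinases went from 0.11 to 0.15 with equal totals, 0.14 without AAV-Ctrl 1 and 0.11 without AAV-Ctrl 2. Caspase-11 partners went from 0.11 to 0.16 with equal totals, 0.082 without AAV-Ctrl 1 and 0.12 without AAV-Ctrl 2. With the filter at 5 FPKM, the 0.83 of the other GBP and IRG genes is the value of Ifi47 alone. Equal totals raised all FPKM values, and 10017 genes then passed the filter, against 9130. Where no setting-specific reason is given the cause was not tested. No paired analysis was possible because only 1 replicate number occurs in both groups as labelled. With 1 AAV-IL-27 library, none could be left out of that group, and scarce genes such as Gbp6 and Iigp1 are limited by depth.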
